A study of Rattus norvegicus with 8 samples.

Results

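The late phase of the testis response to Adjudin was set against its early phase: testes taken 4 d after a dose were compared with testes taken 8 h after it. Adjudin is a compound that detaches developing germ cells from Sertoli cells, the somatic cells that hold and feed them. Adult Sprague-Dawley rats had received 1 gavage dose of 50 mg/kg body weight, and RNA of whole testis was measured 8 h later on 2 arrays (8 h 1 and 8 h 2) and 4 d later on 3 arrays (4 d 1, 4 d 2 and 4 d 3). Testes of untreated adult rats on 3 further arrays (control 1 to 3) gave the starting level, and no vehicle-treated group is named in the labels. A probe set, the group of probes that reports 1 transcript, was a member of the comparison when its deposited signal reached 50 on at least 2 of the 5 treated arrays, which kept 18594 of 31042 non-control probe sets. They stood for 10845 named genes. Whether the arrays of a group came from different rats is not stated, so every p here reflects the spread among these arrays, part of which may be technical. The groups follow the sample titles, because the description of every sample, treated ones included, reads as normal testis.

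Spermatogenesis takes place on Sertoli cells, which anchor spermatids through a testis-specific adhesion structure, the ectoplasmic specialization, and seal the tubule with tight junctions. When a tissue is disturbed, immediate-early genes such as Fos and Egr1 are switched on within minutes to hours without new protein synthesis, and phosphatases and other feedback proteins switch the signal off again. Genes for secreted proteins, protease inhibitors, antigen presentation and the digestion of engulfed cells are known to follow more slowly. Sertoli cells secrete many plasma-like proteins and also engulf dying germ cells.

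Between 8 h and 4 d, 728 probe sets rose and 503 fell at a Benjamini-Hochberg adjusted p below 0.05 in limma, which is 3.92% and 2.71% of those tested and 6.62% together. By gene, 515 rose (4.75%) and 412 fell (3.80%), and these are the background shares for every list below. At least 2-fold changes numbered 440 rises and 182 falls among the called probe sets. All differences are of log2(signal + 16), which understates the change of dim genes, and the median difference over all tested genes was 0.05. Scaling the arrays to equal medians moved the median over probe sets by -0.11, from 0.06 to -0.05, and left 290 rises and 252 falls. Every array had the same 2% trimmed mean signal of 250.1, and 51.7% to 59% of probe sets reached 50. The groups did not overlap, with every 4 d array above both 8 h arrays, for 21.9% of probe sets, and with every 4 d array below for 14.0%.

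The settings files of the arrays gave 3 hybridisation runs. Run 1 held control 1, 8 h 1 and 4 d 1, and run 3 held control 3, 8 h 2 and 4 d 3, so each contains its own comparison of the phases. Run 2 held control 2 and 4 d 2 without an 8 h array, used version 4 of the fluidics protocol where the others used version 5, and has mouse entered as its sample type although its arrays are the rat array. Deviations from the group mean went together within a run (r of 0.365 to 0.526 over 7 pairs of arrays) more than between runs (-0.502 to 0.263 over 14 pairs). With the run as a block, 1736 probe sets rose and 1432 fell. All 1231 probe sets called without the block were also called with it in the same direction. All 1231 also went the same way within run 1 and within run 3. The calls were made on these same arrays, so this agreement describes the called probe sets and is no separate check. Over all tested probe sets, 70.0% had the same sign in both runs. When both run 2 arrays were left out, 213 rose and 145 fell.

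**Figure D1:**
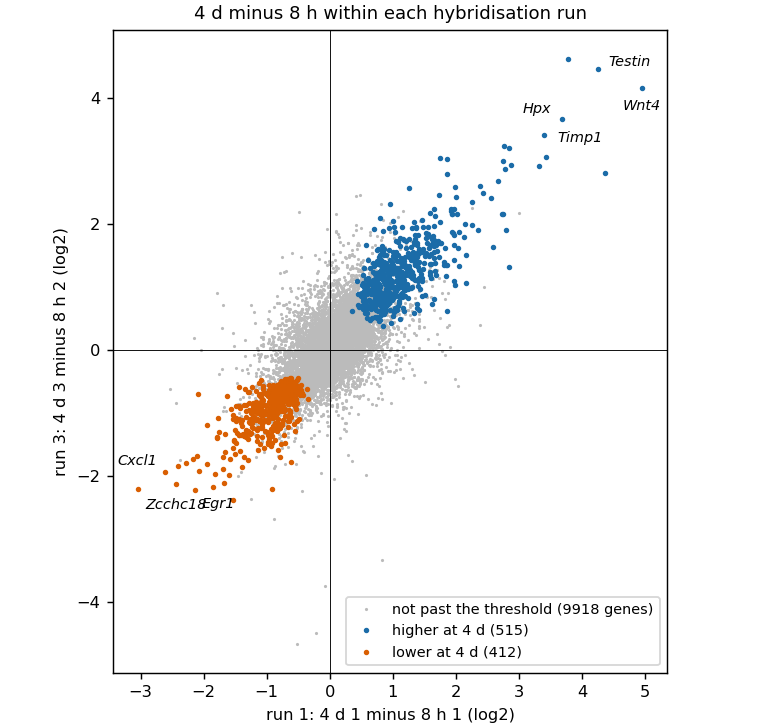
Difference between 4 d and 8 h for each of the 10845 genes within run 1 (horizontal axis, log2 of 4 d 1 over 8 h 1) and within run 3 (vertical axis, log2 of 4 d 3 over 8 h 2). The 515 genes that rose lie in the upper right quadrant and the 412 that fell in the lower left quadrant. They were called on these same arrays, so their place is no separate check. Across all genes, which are not independent replicates, r was 0.71.

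Changes were ranked among called genes with an established symbol, so unnamed transcripts are not in the rankings. The 10 largest falls from 8 h to 4 d were Cxcl1, Zcchc18, Egr1, Fos, Phospho1, Dusp5, Azin2, Neb, Il1a and Pim1. For Cxcl1, Egr1, Fos, Dusp5 and Il1a the 8 h arrays lay above every control, and for Zcchc18, Phospho1, Azin2 and Pim1 the 4 d arrays lay below every control while the 8 h arrays were near them. In all, 9 named genes exceeded control at 8 h (0.0830% of genes): Cxcl1, Egr1, Fos, Il1a, Ier3, Ppp1r15a, Itga6, Rab20 and Dipk2a. The first 6 of these fell by 4 d, while for Itga6, Rab20 and Dipk2a no difference between the phases passed the threshold. With the run as a block, which was compared with control after the other results were seen, 36 genes exceeded control at 8 h (0.332%) and 1 was below (0.00922%). These counts share the 8 h arrays, so a high value at 8 h enters both differences.

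Cxcl1 encodes a chemokine that attracts neutrophils. Its signal was 17.3, 9.2 and 3.2 in the controls, 485 and 464 at 8 h and 65.5, 24.9 and 109.6 at 4 d. The 8 h arrays agreed closely and stood above all others, and the 4 d arrays lay between them and the controls. Cxcl1 fell by 2.71 on the log2 scale (SE 0.43, limma adjusted p = 0.00767) and at 4 d was still above control (log2 1.57, adjusted p = 0.0303). Il1a, the cytokine interleukin 1 alpha, had signals of 558 and 555 at 8 h and 120.5, 140 and 136 at 4 d against 83.7, 79.3 and 48 in the controls. It likewise fell (log2 -1.95, SE 0.22, adjusted p = 0.00169) without returning to the control level (log2 0.80 above it, adjusted p = 0.0297). The call of Cxcl1 was lost without 8 h 1 or without 8 h 2 (adjusted p up to 0.0675), and that of Il1a was kept whichever array was left out.

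Egr1, a zinc finger transcription factor of the immediate-early class, gave 65.1, 67.1 and 106 in the controls, 558 and 699.5 at 8 h and 114, 102 and 138 at 4 d. Fos, a subunit of the AP-1 transcription factor, gave 7.5, 2.5 and 19.3 in the controls, 184 and 179 at 8 h and 20.7, 28.4 and 28.9 at 4 d. In both genes the 8 h arrays stood apart from all 6 others. Egr1 fell by 2.27 (SE 0.23, adjusted p = 0.0011) and Fos by 2.24 (SE 0.34, adjusted p = 0.0058) on the log2 scale. At 4 d neither differed from control past the threshold (log2 0.50 with adjusted p = 0.179 for Egr1, and 0.75 with 0.163 for Fos). Egr1 was above control at 4 d under the run block (adjusted p = 0.0238), where 16.1% of genes were called higher and 12.3% lower. Fos was below 50 on all controls and all 4 d arrays, so it entered the comparison through the 8 h arrays alone, and its call was lost without 8 h 1 or without 8 h 2 (adjusted p up to 0.0583).

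Among the 25 immediate-early transcription factors on the array, 20 reached the signal minimum, of which 5 fell and 0 rose. Besides Egr1 and Fos these were Egr2, a relative of Egr1, with 84.3 and 75.3 at 8 h and 21.0, 23.1 and 19.9 at 4 d (controls 9.6, 14.7 and 28.5), Csrnp1, a nuclear protein induced by axin, with 153 and 189 and then 78.6, 69.8 and 69.3, and the orphan nuclear receptor Nr4a1 with 284 and 227 and then 129, 111 and 124. Egr2, like Fos, was below 50 on all controls and all 4 d arrays and entered through the 8 h arrays alone, so 2 of the 5 falls come from such genes. The median difference of the list was -0.13. Jun, the usual partner of Fos in AP-1, held 297 and 256 at 8 h and 319.7, 262 and 248 at 4 d, all above the controls at 157, 144 and 118 (log2 difference between the phases -0.002, SE 0.19). Klf6 (log2 0.03, adjusted p = 0.981) and Myc (0.37, 0.585) were not called between the phases either, and both were above control at 4 d (adjusted p = 0.0345 and 0.0321). Without 8 h 1, and likewise without 8 h 2, only Egr1 kept its call, so that of Nr4a1 was lost too. Egr2 and Csrnp1 also lost theirs without control 2, 4 d 1, 4 d 2 or 4 d 3. Losses of Nr4a1 without other arrays were not followed.

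Of 23 early feedback and stress genes tested, which include proteins that limit this response, 4 fell and 0 rose. The difference was negative in 17 and positive in 6, with a median of -0.36. Dusp5, a nuclear phosphatase that inactivates ERK kinases, had 113, 121 and 59.9 in the controls, 347 and 214 at 8 h and 84.8, 57.8 and 34.6 at 4 d (log2 -1.999, SE 0.36, adjusted p = 0.0128). Its difference from control at 8 h did not pass the threshold (log2 1.39, adjusted p = 0.485), and with the run as a block it did (adjusted p = 0.0162). Dusp6, the cytoplasmic ERK phosphatase, fell from 442 and 289 to 152, 132 and 188 (log2 -1.12, adjusted p = 0.0151). Ier3, an immediate-early gene linked to cell survival, went from 653 and 683 to 338, 238 and 411 with controls at 77.4, 55.9 and 87.4, so that it fell (log2 -1.02, adjusted p = 0.0363) and yet remained above control at 4 d (log2 1.93, adjusted p = 0.000715). Ppp1r15a, which steers protein phosphatase 1 to the translation factor eIF2 alpha, behaved alike, with 296 and 366 at 8 h, 168, 202 and 150.4 at 4 d and 92.7, 111 and 90.6 in the controls.

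Zfp36, which destabilises cytokine messenger RNAs, had 308 and 381 at 8 h and 160, 179 and 92.6 at 4 d, a difference of -1.21 that missed the threshold (adjusted p = 0.0655) and passed it with the run as a block (0.00212). Gadd45b (-0.07, adjusted p = 0.933), Nfkbia (0.02, 0.971) and Dusp1 (-0.22, 0.812) were not called between the phases. With the run as a block 8 of the feedback genes fell and 2 rose. When arrays were left out in turn 0 to 5 fell, none (0) without 8 h 1, and the calls that could be lost were Dusp5 without 8 h 1 (adjusted p up to 0.0947), Dusp6 without 8 h 1, 4 d 1 or 4 d 2 (adjusted p up to 0.11), Ier3 without control 1, 8 h 1, 8 h 2, 4 d 1 or 4 d 2 (adjusted p up to 0.21) and Ppp1r15a without 8 h 1, 8 h 2, 4 d 1 or 4 d 3 (adjusted p up to 0.234).

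The 300 bases around the start of transcription (250 before and 50 after, RefSeq, build GRCr8) are shown for 3 early genes and 2 late ones. The early genes were taken from the largest falls within the early response lists, and the late ones have the largest rises. Fos had no entry in the promoter set used. Whether these sequences bear on the falls or rises was not tested. Capitals mark matches to any of the motifs searched on both strands: the CArG box bound by serum response factor, the kappaB site bound by NF-kappaB, the AP-1 site TGANTCA, the cyclic AMP element TGACGTCA, the TATA box TATAAA and the antioxidant response element TGACNNNGC.
Cxcl1 (chr14:17479272-17479571, minus strand): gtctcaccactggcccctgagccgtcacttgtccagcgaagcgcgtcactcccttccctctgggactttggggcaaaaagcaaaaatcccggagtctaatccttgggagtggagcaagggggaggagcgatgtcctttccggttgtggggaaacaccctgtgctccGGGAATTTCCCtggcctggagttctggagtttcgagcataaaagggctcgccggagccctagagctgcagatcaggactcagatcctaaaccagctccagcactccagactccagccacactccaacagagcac
Dusp5 (chr1:262543524-262543823, plus strand): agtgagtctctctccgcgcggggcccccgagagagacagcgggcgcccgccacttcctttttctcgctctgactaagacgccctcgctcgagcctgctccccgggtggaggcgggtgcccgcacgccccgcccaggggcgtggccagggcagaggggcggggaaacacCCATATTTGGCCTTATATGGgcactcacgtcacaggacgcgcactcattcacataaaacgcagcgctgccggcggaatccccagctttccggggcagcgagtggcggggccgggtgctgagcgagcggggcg
Il1a (chr3:136989968-136990267, minus strand): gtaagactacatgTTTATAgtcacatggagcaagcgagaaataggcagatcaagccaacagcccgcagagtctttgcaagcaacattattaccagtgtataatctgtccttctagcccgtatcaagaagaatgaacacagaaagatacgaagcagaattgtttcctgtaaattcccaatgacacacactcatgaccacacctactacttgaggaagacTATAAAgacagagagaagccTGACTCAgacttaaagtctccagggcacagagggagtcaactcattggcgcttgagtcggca
Wnt4 (chr5:154797200-154797499, plus strand): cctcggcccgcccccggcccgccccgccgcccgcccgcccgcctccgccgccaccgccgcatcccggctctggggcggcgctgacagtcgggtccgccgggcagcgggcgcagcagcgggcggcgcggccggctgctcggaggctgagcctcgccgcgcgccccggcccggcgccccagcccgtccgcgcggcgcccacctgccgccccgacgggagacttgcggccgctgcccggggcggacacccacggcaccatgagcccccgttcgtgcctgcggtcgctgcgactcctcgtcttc
Testin (chr17:3852259-3852558, plus strand): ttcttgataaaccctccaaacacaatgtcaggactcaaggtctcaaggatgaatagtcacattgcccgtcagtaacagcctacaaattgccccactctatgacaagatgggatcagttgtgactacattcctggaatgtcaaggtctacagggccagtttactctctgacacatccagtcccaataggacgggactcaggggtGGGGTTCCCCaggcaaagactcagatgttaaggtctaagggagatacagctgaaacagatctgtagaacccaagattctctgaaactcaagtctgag
The Cxcl1 window held a kappaB match on each strand, at -84 and -83 from the start, which overlap and appear as 1 run of capitals. Dusp5 had CArG matches at -82 and -72, and the Egr1 window, which is not shown, had them at -105 and -83. Il1a had an AP-1 match at -12 and TATA matches at -237 on the minus strand and -32 on the plus strand. Testin had a kappaB match at -47, and no searched motif was present in the Wnt4 window. Among 33469 windows of the same length, 1.64% held a CArG match, 4.18% a kappaB match, 7.33% the AP-1 letters, 1.83% the cyclic AMP element, 14.2% the TATA letters and 12.1% the antioxidant element. The windows differed in base composition, from 44.3% G and C in Il1a and 47.0% in Testin to 58.0% in Cxcl1, 69.0% in Dusp5 and 83.3% in Wnt4. A match is a description of letters and no sign of binding.

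Other cytokines and their receptors split by phase. Of 16 cytokines and chemokines tested, Cxcl1 and Il1a fell and Cxcl12 and Cxcl9 rose, with a list median of 0.12. Cxcl12, the ligand of the receptor Cxcr4, had 276 and 276 at 8 h and 797, 1032 and 1111 at 4 d, against 325, 312 and 362 in the controls. No 4 d array came near an 8 h array (log2 1.75, SE 0.17, adjusted p = 0.000724). Cxcl9, an interferon-gamma-induced chemokine, went from 125 and 82.3 to 234, 183 and 228 (log2 0.97, adjusted p = 0.041). The call of Cxcl9 was lost without any 1 of control 2 and the 5 treated arrays (adjusted p up to 0.294) and with equal medians. Ccl2, the monocyte attractant, held 117 and 153 at 8 h and 92.5, 60.5 and 148 at 4 d against 11, 24.8 and 19.3 in the controls, without a call between the phases (log2 -0.44, adjusted p = 0.585). The transcripts of Il1b, Il6 and Tnf did not reach the signal minimum.

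Receptors and NF-kappaB subunits were called in the late direction, with 6 rises and 0 falls among 15 tested (median 0.70). Tnfrsf1a, the main receptor for tumour necrosis factor, stood at 95.4, 114 and 133 in the controls, 215 and 257 at 8 h and 653, 706 and 778 at 4 d (log2 1.53, SE 0.18, adjusted p = 0.0019). The 3 groups did not overlap. Il1r2, the decoy receptor that binds interleukin 1 without signalling, was 4.6 and 3.3 at 8 h and 64.5, 43.0 and 52.2 at 4 d (adjusted p = 0.0195), so only 2 arrays at 4 d carried it past the signal minimum. Tnfrsf12a, the receptor for the cytokine TWEAK, rose from 104 and 172 to 354, 307 and 295, and Csf1r, the growth factor receptor of macrophages, from 96.9 and 93.1 to 189, 181 and 216. The signal transducer Il6st (log2 0.70, adjusted p = 0.0353) and the subunit Nfkb1 (log2 0.92, adjusted p = 0.0383) completed the list. Without any 1 of 8 h 1, 8 h 2 and 4 d 1 only Tnfrsf1a kept its call, so those of Il6st and Nfkb1 were lost too. Il1r2 and Tnfrsf12a also lost theirs without 4 d 2 or 4 d 3, and Tnfrsf12a without control 2. Losses of Il6st and Nfkb1 without other arrays were not followed.

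A small set was above control at both times without a call between them. Itga6, the integrin alpha chain that binds laminin, had 126, 121 and 109 in the controls, 351 and 384 at 8 h and 444, 364 and 546 at 4 d. Rab20, a small GTPase of endosomes and phagosomes, had 165, 152 and 174 in the controls, 513 and 564 at 8 h and 474, 522 and 464 at 4 d. Dipk2a had 168, 131 and 113 in the controls, 489.8 and 609 at 8 h and 411, 295 and 393 at 4 d. In all 3 genes every treated array exceeded every control array. They were chosen for being above control at both times, so this describes them and is no separate check. The difference between the phases was 0.27 for Itga6 (95% interval -0.15 to 0.69), -0.14 for Rab20 (-0.47 to 0.18) and -0.57 for Dipk2a (-1.04 to -0.09), with adjusted p of 0.522, 0.692 and 0.166. The intervals leave room for a difference, and that of Dipk2a, which is not adjusted for the number of genes, lies below 0. For each gene 1 other probe set had the opposite sign, past no threshold.

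**Figure D2:**
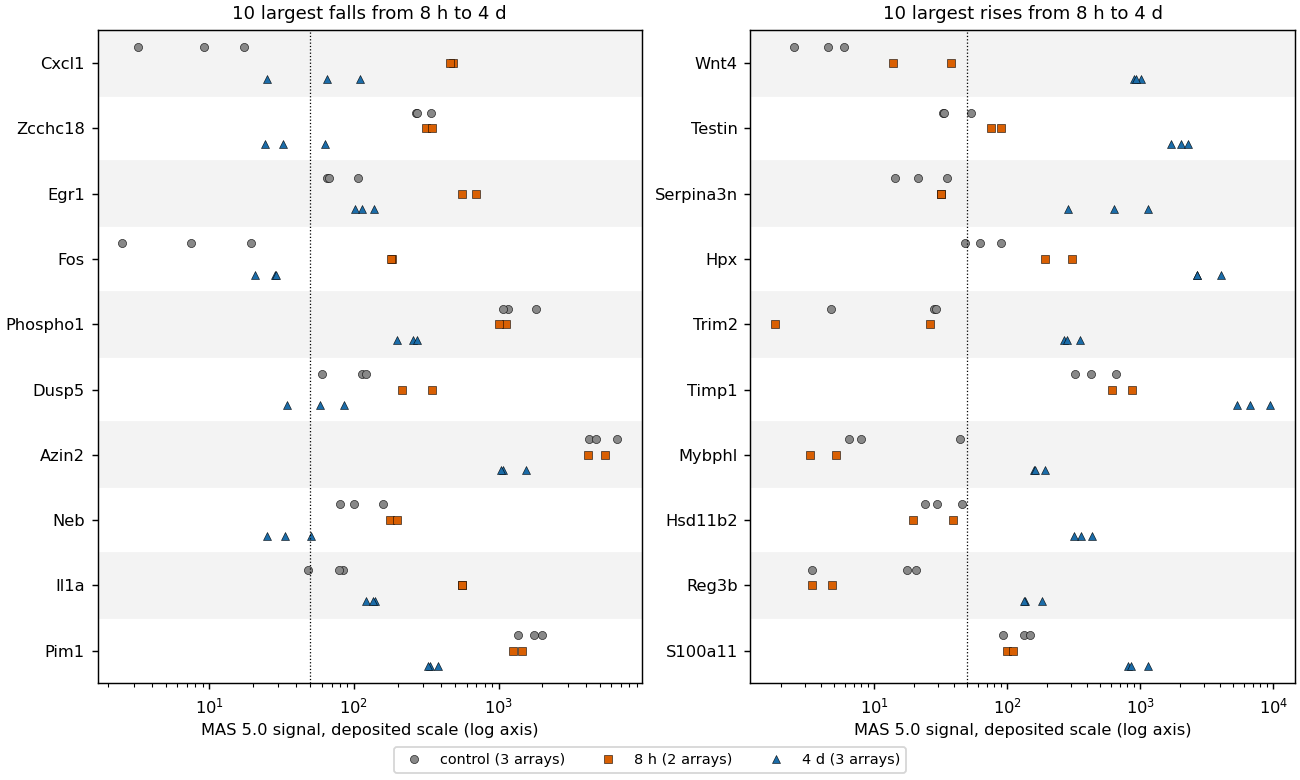
Deposited signal (log axis) of the 10 largest falls and the 10 largest rises from 8 h to 4 d on each array, with controls as grey circles, 8 h as orange squares, 4 d as blue triangles and the signal minimum of 50 as a dotted line. Both sets were taken among called genes with an established symbol. Cxcl1, Egr1, Fos and Il1a are highest in the 8 h squares. Zcchc18, Phospho1, Azin2 and Pim1 are lowest in the 4 d triangles, and all 10 rises are highest in the 4 d triangles.

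Among called genes with an established symbol, the 10 largest rises were Wnt4, Testin, Serpina3n, Hpx, Trim2, Timp1, Mybphl, Hsd11b2, Reg3b and S100a11. None of them (0 of 10) differed from control past the threshold at 8 h in limma, when 0.0830% of all genes were above control. With so small a share, the count says little about these genes. With the run as a block Hpx alone differed. Both 8 h arrays of Wnt4, Testin and Hpx lay above every control. The share of all genes in that order was not counted, and these Wnt4 readings were all below 50. All 10 were above control at 4 d, when 8.02% of genes were. That count reuses the 4 d arrays on which the 10 were chosen for their height, so it describes them and supports nothing. Wnt4, a secreted ligand of the Wnt pathway, had 2.5, 5.9 and 4.5 in the controls, 13.8 and 37.6 at 8 h and 901, 1021 and 936 at 4 d. It rose by 4.60 on the log2 scale (SE 0.27, adjusted p = 0.000132), and the difference was 4.94 in run 1 and 4.15 in run 3. Testin, a cathepsin-like protein secreted by Sertoli cells, had 53.7, 32.9 and 33.6 in the controls, 74.9 and 89.7 at 8 h and 1711, 2039 and 2292 at 4 d (log2 4.36, SE 0.21, adjusted p = 4.61e-05). The 4 d arrays of both genes lay close together and far from all others. Wnt4, Serpina3n, Trim2, Mybphl, Hsd11b2 and Reg3b were below 50 on both 8 h arrays, so they entered the comparison through the 4 d arrays. Each of the 10 kept its call whichever array was left out and under every other setting run.

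Outside the gene lists, Trim2, a ubiquitin ligase, rose from 1.8 and 26.4 to 351, 268 and 280.1 (log2 3.51) and Mybphl, a relative of the muscle myosin-binding proteins, from 3.3 and 5.2 to 191, 159.7 and 160.5 (log2 3.20). Hsd11b2, the enzyme that inactivates corticosterone, rose from 39.2 and 19.5 to 359, 433 and 318 (log2 3.11, adjusted p = 0.000627). Reg3b, a secreted lectin, went from 4.8 and 3.4 to 136, 182 and 133, and S100a11, a calcium-binding protein, from 98.8 and 109.8 to 809.5, 857 and 1138. The 8 h readings of Trim2, Mybphl and Reg3b lay among their controls or below them, and no control of the 3 genes reached 50.

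Of 15 protease inhibitors tested, most of them secreted, 7 rose, with 0 falls and a median of 0.95. Timp1, the inhibitor of matrix metalloproteinases, had 323, 428 and 654 in the controls, 615 and 871 at 8 h and 6654, 5366 and 9416 at 4 d (log2 3.22, SE 0.31, adjusted p = 0.000722). Serpina3n, an inhibitor of serine proteases, went from 31.7 and 31.6 to 636, 284 and 1142, with a wider relative spread at 4 d than Timp1. Serpinb1a, an inhibitor of neutrophil proteases, rose from 75.2 and 99.3 to 565, 744 and 721 (log2 2.75) and Serping1, the inhibitor of complement C1, from 310.5 and 312 to 1066, 1128 and 1781 (log2 1.995). A2m, the broad inhibitor alpha-2-macroglobulin, stood at 517 and 406 and then 1307, 1214 and 1591 (log2 1.54, adjusted p = 0.00152). The remaining rises were Serpinb9 and the collagen chaperone Serpinh1. The count with the run as a block was 12 rises and 1 fall, and without single arrays 6 to 7 rises.

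Some proteases rose beside their inhibitors, 9 of 22 tested with 0 falls (median 0.77). Htra1, a secreted serine protease, had 219 and 194 at 8 h and 877, 972 and 969.7 at 4 d (log2 2.10, SE 0.15, adjusted p = 0.00022). The lysosomal proteases Ctsb (log2 1.30), Ctsl (1.32), Ctsa (1.56), Ctsc, Ctsd, Ctsk and Lgmn and the metalloproteinase Mmp11 made up the rest. Ctsl, which Sertoli cells also secrete, went from 2592 and 3617 to 6655, 7264 and 9394, with controls at 1939.6, 1911 and 2406. Of the iron, haem and acute phase genes 5 of 8 tested rose, and the other 3 had negative differences without a call. Hp, haptoglobin, which binds free haemoglobin, was the lowest of these, with 1659 and 1756 at 8 h and 1422, 1130.1 and 63.2 at 4 d (log2 -1.76, adjusted p = 0.398), so the array 4 d 3 stood far below all others. Hpx, which binds free haem, had 61.9, 48.2 and 89.7 in the controls, 194 and 305 at 8 h and 2682, 2673 and 4064 at 4 d (log2 3.58, SE 0.28, adjusted p = 0.000281). Both 8 h arrays lay above all controls without a call (log2 1.68, adjusted p = 0.0965), and with the run as a block Hpx was called at 8 h (adjusted p = 0.00128). Lcn2, which binds iron carriers of bacteria, went from 730.5 and 978 to 4027, 3874 and 5526 (log2 2.36), Saa3, an acute phase protein, from 41.4 and 54.8 to 209.8, 196 and 134, and the copper carrier Cp from 189 and 221 to 365, 349 and 599.8.

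Beside the haem-related genes, 2 of the 3 red cell genes tested had a positive difference and 1 a negative one (log2 -0.06), with 1 rise called. Most of their summed signal came from the globin Hbb, which was not called. The summed signal of the 3 red cell genes was 2117 and 2367 at 8 h and 5699, 3266 and 4671 at 4 d, with controls at 1584, 2555 and 2219, and their part in the result was not tested. Leaving out arrays left 4 to 10 protease rises and 2 to 5 iron and acute phase rises, both fewest without 8 h 1. Among the largest changes of each list, the calls lost were Ctsa without 8 h 1 or 8 h 2, and Ctsl and Saa3 without 8 h 1. Cp lost its call without control 2, 8 h 1, 8 h 2, 4 d 1 or 4 d 3. In both lists other rises, not followed by gene, also lost their calls without 8 h 1.

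Genes of immune recognition rose late in part. Of 11 complement genes tested 4 rose and 1 fell (median 0.97). C1s, the protease of the first complement component, had 487, 547 and 679 in the controls, 646 and 548 at 8 h and 2607, 2572 and 3347 at 4 d (log2 2.21, SE 0.18, adjusted p = 0.000331). Its partner C1r went from 552 and 652 to 1771, 1604 and 1809. The recognition subunits C1qa (log2 1.25) and C1qc (1.09) rose as well. The complement gene that fell was Cd55, the membrane protein that protects cells from complement, with 1336 and 1636 at 8 h and 762, 872 and 683 at 4 d (log2 -0.93, adjusted p = 0.00781), and it is named after its value was seen. Without 8 h 2, 2 rises remained and no fall (0). Calls that could be lost were C1qa without 8 h 1, 8 h 2 or 4 d 1 (adjusted p up to 0.0847) and C1qc without 8 h 2 (adjusted p up to 0.0863).

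Of the 8 genes of MHC class II presentation 2 rose and 0 fell (median 0.87). RT1-Da, a class II alpha chain, had 278 and 182 at 8 h and 1049, 1075 and 1587 at 4 d (log2 2.35, SE 0.24, adjusted p = 0.00106). Cd74, the invariant chain that guides class II molecules, went from 372 and 403 to 1478, 1523 and 1848 (log2 2.01, adjusted p = 0.000281). The only negative difference of the list was that of RT1-Bb, without a call (log2 -1.72, SE 1.44, adjusted p = 0.606). It was -0.52 in run 1 and -4.66 in run 3. Under the run block there were 3 rises and 1 fall, the latter RT1-Bb (adjusted p = 0.039). Class I presentation and the immunoproteasome contributed 8 rises of 14 tested and 0 falls (median 0.86). These were the light chain B2m, from 2765 and 3114 to 5741, 5642 and 7722 (log2 1.10), the peptide-trimming enzyme Erap1, from 127 and 168 to 434, 332 and 850.4 (log2 1.66), the proteasome parts Psmb8 (0.99), Psmb9 (1.11), Psmb10, Psme1 (1.22) and Psme2, and the loading factor Tapbp. The class I list lost most of its calls without 8 h 2. Among its 4 largest changes, the call of Erap1 was lost without 8 h 1, 8 h 2 or 4 d 1. Those of Psme1 and Psmb9 were lost without 8 h 2, and that of B2m without 8 h 1 or 8 h 2. Losses among the other rises of the list were not followed by gene.

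Interferon-induced genes gave 8 rises of 20 tested and 0 falls (median 0.69). Gbp2, a guanylate-binding protein, had 128, 90.2 and 104 in the controls, 174 and 203 at 8 h and 618, 507 and 588 at 4 d (log2 1.52, SE 0.19, adjusted p = 0.00225). The antiviral membrane proteins Ifitm2 and Ifitm3 went from 339 and 433 to 1097, 1203 and 1479.9 and from 395 and 645 to 1419, 1349 and 1723. Isg15, a ubiquitin-like protein, had 4.3 and 7.4 at 8 h and 87.7, 54.3 and 71.0 at 4 d, and passed the signal minimum only through the 4 d arrays. Irf1, the transcription factor that drives many of these genes, stood at 74.2, 85.4 and 68.9 in the controls, 128 and 186 at 8 h and 359, 284 and 320.1 at 4 d (log2 between the phases 0.98, adjusted p = 0.0234), in steps that did not overlap. The fewest rises remained without 8 h 1, which left 1 array at 8 h. Among the 4 largest changes, the calls lost were Isg15 without 8 h 1 or 4 d 1 and Ifitm3 without 8 h 1. Other rises of the list, not followed by gene, also lost their calls without 8 h 1.

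Genes of engulfment and the lysosome, the longest list tested, held the most calls, 16 rises of 29 tested and 0 falls (median 0.77). By share, iron, haem and acute phase genes (5 of 8) and class I presentation (8 of 14) were higher. Gpnmb, a glycoprotein of phagosomes and lysosomes, had 33.2, 30.7 and 40.2 in the controls, 47.5 and 56.5 at 8 h and 420.2, 523 and 514 at 4 d (log2 2.88, SE 0.20, adjusted p = 0.00022). Pros1, a ligand that bridges dying cells to the receptor Mertk, went from 150 and 176 to 420.1, 371 and 535 (log2 1.34). Tpp1, a lysosomal peptidase, went from 213 and 198 to 481, 567 and 718 (log2 1.43), and Anxa2, which binds membranes, from 961 and 1166 to 2479, 2313 and 3151 (log2 1.30). The other rises included the bridging protein Mfge8, the engulfment factors Elmo1, Elmo2 and Rac1, and the lysosomal proteins Lamp2, Cd63, Scarb2, Psap, Gla and Grn. The 8 h median of the list against control was 0.06 and the 4 d median 0.79. Without 8 h 1, 7 rises remained, and Gpnmb, Pros1, Tpp1 and Anxa2 kept their calls whichever array was left out.

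Detoxifying enzymes rose late in part, 7 of 20 glutathione, oxidative stress and metal genes with 0 falls (median 0.45). Gstp1, a glutathione transferase, had 673, 647 and 573 in the controls, 641 and 834 at 8 h and 2554, 2761 and 2272 at 4 d (log2 1.76, SE 0.16, adjusted p = 0.000553). Gpx1, which reduces peroxides, went from 642 and 828 to 1813, 1844 and 2535, Gstm7 from 1775 and 1886 to 3945, 3833 and 4790.3 and the redox protein Txn1 from 1362 and 1998 to 3328, 2891 and 4774. Nqo1, Gstm1 and Gstm2 made up the rest, and the values of the Gstm genes are uncertain because close paralogs can share probes. Of 19 heat shock and unfolded protein genes, Hspd1, a mitochondrial chaperone, rose (log2 0.70, adjusted p = 0.0433) and Asns, asparagine synthetase, fell (log2 -0.91, adjusted p = 0.0194). Among 16 apoptosis genes only Bid, which links death receptors to mitochondria, was called, from 67.7 and 45.3 to 118, 158 and 116. The glutathione list kept the fewest rises without 8 h 1, where Gpx1, Nqo1, Gstm1 and Gstm2 lost their calls. Txn1 and Bid lost theirs without any 1 array except control 3. Hspd1 lost its call without control 1, control 2, 8 h 1, 8 h 2, 4 d 1 or 4 d 3, and Asns without 8 h 1, 8 h 2, 4 d 1 or 4 d 2.

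**Figure D3:**
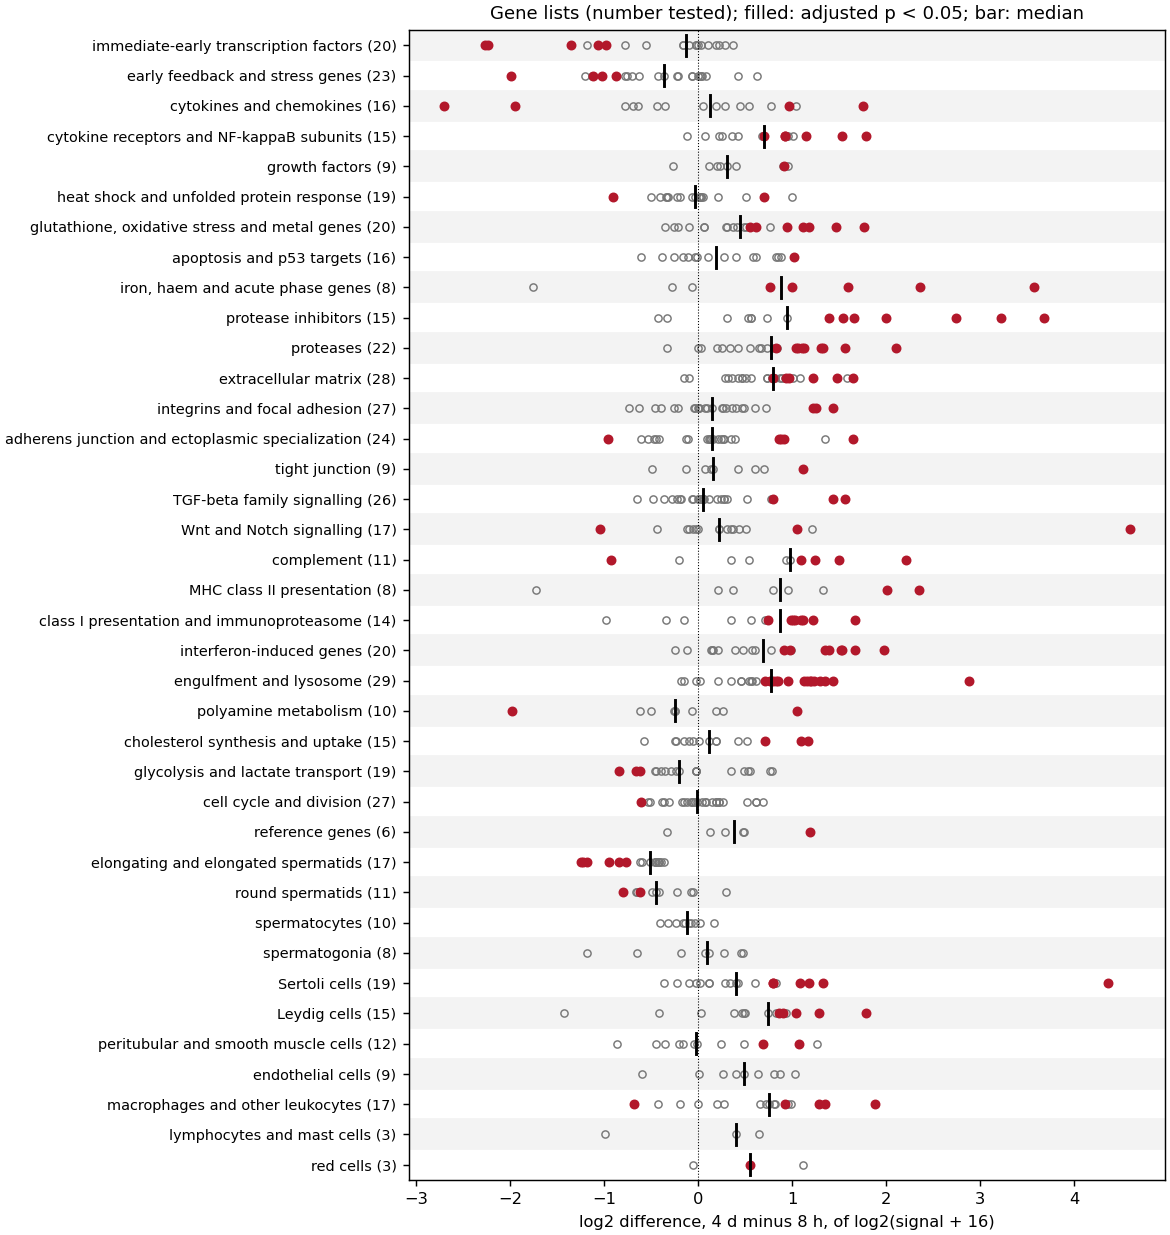
Difference between 4 d and 8 h, in log2, of each tested member of the gene lists, with filled points for an adjusted p below 0.05 in limma, open points for the others, a bar at the list median and the number tested in brackets. The engulfment and lysosome list has 16 filled points to the right of 0, the spermatid lists have theirs to the left, and the immediate-early list has 5 to the left with its median near 0.

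Equal array medians reduced the lists of rises unevenly. Protease inhibitors kept a count of 7, while engulfment and lysosome genes came to 4, interferon-induced genes to 4, class I presentation to 3, complement to 3, iron and acute phase genes to 3, receptors and NF-kappaB subunits to 3, extracellular matrix to 2, and proteases, glutathione genes and Sertoli cell markers to 1 each.

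Genes of matrix and adhesion changed in part. Of 28 extracellular matrix genes tested 6 rose and 0 fell (median 0.79). Col3a1, a fibrillar collagen, had 392, 316 and 760.4 in the controls, 321 and 315 at 8 h and 1180.4, 932 and 999.5 at 4 d (log2 1.65, SE 0.30, adjusted p = 0.0129). Col18a1, a basement membrane collagen, went from 202 and 142 to 549.7, 459 and 495, the microfibril protein Fbn1 from 142 and 130.2 to 364, 267 and 399 and the laminin chain Lamc1 from 287 and 215 to 515, 455 and 542. Col6a2 and Bgn also rose. The matrix count was 15 with the run as a block. Without 8 h 2 every matrix call was lost, those of Col18a1, Col6a2 and Bgn included. Col3a1 and Fbn1 also lost theirs without 8 h 1 or 4 d 1, and Lamc1 without 4 d 1. Losses of Col6a2 and Bgn without other arrays were not followed.

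Of 27 integrin and focal adhesion genes 3 rose, and Itga6, described above, was high at both times. Actn1, which links actin to adhesions, went from 89.6 and 55.6 to 249.7, 194 and 214 (log2 1.43, adjusted p = 0.00904), and Parva, an adaptor of integrin-linked kinase, from 147 and 79.6 to 278, 236 and 338. Itga9 followed with 29.2 and 57.6 and 113, 125 and 118. In the list of the adherens junction and ectoplasmic specialization, 4 of 24 rose and 1 fell. Arpc1b, a subunit of the actin-branching Arp2/3 complex, went from 300.5 and 322 to 1025, 909.9 and 1102 (log2 1.65, SE 0.17, adjusted p = 0.000992). Ctnna1, which ties cadherins to actin, rose (log2 0.88), as did the scaffold Iqgap1 (0.91) and the actin regulator Cttn (0.85, named after its value was seen).

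Gja1, the gap junction protein connexin 43 that couples Sertoli cells with each other and with germ cells, was the member that fell, from 1798 and 1917 to 857, 794 and 1234 with controls at 1412, 1276 and 1792 (log2 -0.96, SE 0.21, adjusted p = 0.025). The cadherin Cdh2, which joins Sertoli and germ cells, had a difference of 0.26 (adjusted p = 0.776). At the tight junction Cldn5 rose from 231 and 179.8 to 461, 414 and 512 (log2 1.12), 1 of 9 tested. Cldn11, the main claudin of Sertoli cells, had 2982 and 3804 and 4543, 4741 and 6206 without a call (log2 0.60, adjusted p = 0.0813), and it was called with the run as a block (adjusted p = 0.000597). Ocln (log2 0.16) and Tjp1 (0.14) were not called. Leaving out 8 h 2 ended the calls of Actn1 and Cldn5. That of Parva was lost without 8 h 2, 4 d 1 or 4 d 3. Itga9 lost its call without 8 h 1, 4 d 1, 4 d 2 or 4 d 3, and Gja1 without 8 h 1, 8 h 2, 4 d 1 or 4 d 2. The call of Iqgap1 was lost without 8 h 1, 8 h 2, 4 d 1, 4 d 2 or 4 d 3. Ctnna1 and Cttn lost theirs without 8 h 1, 8 h 2 or 4 d 1.

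Among signalling genes besides Wnt4, 3 of 26 genes of the TGF-beta family pathway rose. The ligand Bmp6 went from 124 and 53.4 to 325, 322 and 199 (log2 1.56), Id2, a target of bone morphogenetic proteins, from 150.3 and 84.7 to 377, 354 and 276 (log2 1.43), and the ligand Tgfb3 from 158 and 139 to 253, 303 and 252 (log2 0.79). The secreted Wnt antagonists moved in opposite directions, Sfrp1 from 122 and 73.7 up to 256, 234 and 164 (adjusted p = 0.0368) and Sfrp2 from 97.8 and 138 down to 47.7, 49.9 and 46.9 (adjusted p = 0.0288), a gene that passed the signal minimum only through the 8 h arrays. Of 9 growth factors only Mdk, midkine, was called, at 120.5 and 87.2 and then 211, 238 and 178. In Bmp6, Id2 and Sfrp1 the array 8 h 2 was the lowest of all 8. Lost calls were Bmp6 without 8 h 2, 4 d 1 or 4 d 2 (adjusted p up to 0.153), Id2 without 8 h 2, 4 d 1 or 4 d 2 (adjusted p up to 0.143), Tgfb3 without control 2, 8 h 1, 8 h 2, 4 d 1, 4 d 2 or 4 d 3 (adjusted p up to 0.245), Sfrp1 without control 1, control 2, 8 h 2, 4 d 1 or 4 d 2 (adjusted p up to 0.276), Sfrp2 without 8 h 1, 8 h 2, 4 d 1, 4 d 2 or 4 d 3 (adjusted p up to 0.229) and Mdk without control 2, 8 h 1, 8 h 2, 4 d 1 or 4 d 2 (adjusted p up to 0.23).

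In the polyamine pathway 1 gene fell and 1 rose. Azin2, an activator of polyamine synthesis and uptake that is abundant in the testis, had 4240, 4702 and 6582 in the controls, 4159.8 and 5476 at 8 h and 1065, 1033 and 1544 at 4 d (log2 -1.99, SE 0.23, adjusted p = 0.00202). Sat1, which acetylates polyamines for export, rose from 467 and 539.7 to 1064, 955 and 1175 (log2 1.05, adjusted p = 0.00388). Odc1, the enzyme that starts the pathway, had -0.24 (adjusted p = 0.512). Of 15 cholesterol genes 3 rose, namely Dhcr7 (log2 1.16), Lss (1.10) and Msmo1 (0.71), all enzymes of synthesis. Dhcr7 and Lss had their lowest value of the series on 8 h 2 (200.1 and 134 for Dhcr7 on the 8 h arrays). Of 19 genes of glycolysis and lactate transport 3 fell: the sperm-specific Gapdhs from 11602 and 14427 to 6311, 7197 and 8241, Tpi1 (-0.66) and Hk1 (-0.62). Of 27 cell cycle genes Bub1, a spindle checkpoint kinase, fell (log2 -0.61), and of 6 reference genes Gusb rose (log2 1.19). The reference genes had a median of 0.38, with 5 of 6 positive and 3 rises with the run as a block, which is about the size of the medians of the glutathione and Sertoli cell lists.

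The calls in these metabolic lists were often lost when an array was left out, namely Dhcr7 without 8 h 2 (adjusted p up to 0.109), Lss without control 2, 8 h 2, 4 d 1, 4 d 2 or 4 d 3 (adjusted p up to 0.263), Msmo1 without control 1, control 2, 8 h 1, 8 h 2, 4 d 1, 4 d 2 or 4 d 3 (adjusted p up to 0.221), Gapdhs without 8 h 1, 8 h 2, 4 d 1 or 4 d 2 (adjusted p up to 0.215), Tpi1 without control 1, control 2, 8 h 1, 8 h 2, 4 d 1, 4 d 2 or 4 d 3 (adjusted p up to 0.295), Hk1 without control 1, control 2, 8 h 1, 8 h 2, 4 d 1, 4 d 2 or 4 d 3 (adjusted p up to 0.228), Bub1 without 8 h 1, 8 h 2, 4 d 1, 4 d 2 or 4 d 3 (adjusted p up to 0.16) and Gusb without 8 h 1, 8 h 2 or 4 d 1 (adjusted p up to 0.103). Azin2 and Sat1 kept theirs whichever array was removed. With equal medians Sat1, Msmo1, Gapdhs, Tpi1, Hk1, Bub1 and Gusb lost their calls, and Azin2, Dhcr7 and Lss kept theirs.

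At 4 d, 5.48% of genes were called below control. The falls that brought genes below that level included Pim1, a serine/threonine kinase, with 1746, 2006 and 1360.5 in the controls, 1251 and 1445 at 8 h and 379.6, 336 and 323 at 4 d (log2 -1.91, SE 0.18, adjusted p = 0.000675). Phospho1, a phosphatase of phosphocholine and phosphoethanolamine, had 1162, 1821 and 1070.5 in the controls, 1119 and 1014 at 8 h and 198, 255 and 271 at 4 d (log2 -2.08). Zcchc18, a zinc finger protein, had 342, 270.5 and 274 in the controls, 313 and 346 at 8 h and 24.2, 32.3 and 62.6 at 4 d (log2 -2.69, adjusted p = 0.00102). In these 3 genes all 5 arrays of control and 8 h lay above all 4 d arrays. Neb, the thin-filament protein nebulin, had 158, 79.7 and 99.5 in the controls, 176 and 197 at 8 h and 50.2, 33.6 and 25.1 at 4 d, so its 8 h arrays were above the controls too (log2 0.70, adjusted p = 1). The call of Neb was lost without 8 h 2 (adjusted p = 0.0663).

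Markers of late germ cells fell in part. All 17 markers of elongating and elongated spermatids tested had a negative difference (median -0.51), and 6 of them fell: Cabs1, Fscn3, Prm2, Akap4, Gapdhs and Prm3, the last of these named after its value was seen (log2 -0.77). Cabs1, a calcium-binding protein of spermatid tails, had 8380.4, 7996 and 10051 in the controls, 8687 and 11416 at 8 h and 3860.1, 3520.3 and 5322 at 4 d (log2 -1.25, SE 0.20, adjusted p = 0.00805). Prm2, a protamine that packs sperm DNA, went from 8742 and 10924 to 3533, 3216 and 6895 (log2 -1.19, adjusted p = 0.0463), and Akap4, the main protein of the fibrous sheath of the sperm tail, from 9137 and 12028 to 4746, 4976 and 6679. Prm1 (log2 -0.40, adjusted p = 0.473) and the transition protein Tnp1 (-0.42, 0.403) were not called. With the run as a block all 17 fell. Without 8 h 2, and also with arrays set to equal medians, none of the 17 was called (0). In whole tissue, fewer cells of a type and less RNA per cell cannot be told apart.

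Of 11 round spermatid markers 2 fell, Tssk2, a kinase of spermatids (log2 -0.80, adjusted p = 0.0457), and Crem, their transcriptional regulator (log2 -0.62, adjusted p = 0.0295), and with the run as a block 7 fell. Crem had 2 other probe sets of the opposite sign. None of 10 spermatocyte and 8 spermatogonial markers was called, and the smallest adjusted p were 0.173 for Piwil2 (log2 -0.41) and 0.129 for Uchl1 (0.48, called under the run block with 0.0216). The median difference was -0.12 for spermatocytes and 0.09 for spermatogonia, beside -0.45 for round spermatids. Germ cell calls lost when arrays were left out included Cabs1, Fscn3 and Prm3 without 8 h 2. Prm2 and Tssk2 lost theirs without control 1, control 2, 8 h 1, 8 h 2, 4 d 1 or 4 d 2. The call of Akap4 was lost without 8 h 1, 8 h 2, 4 d 1 or 4 d 2. That of Crem was lost without 8 h 1, 8 h 2, 4 d 1, 4 d 2 or 4 d 3. Tssk2 and Crem also lost theirs with equal medians.

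Markers of somatic cells were mixed. Of 19 Sertoli cell markers 6 rose and 0 fell (median 0.40), with 4 to 7 rises without single arrays. These were Testin, Ctsl, Gstm7, Shbg, Cst12 and Vim. Ctsl was also counted among the proteases and Gstm7 among the glutathione genes. Shbg, the androgen-binding protein, had 1097, 1179 and 1052 in the controls, 879 and 1022 at 8 h and 1889, 1920.5 and 2304 at 4 d (log2 1.09, SE 0.14, adjusted p = 0.00292). The inhibin subunit Inha held 610.2 and 667 and 586, 698 and 805 without a call (log2 0.11, adjusted p = 0.831). Of 15 Leydig cell markers, genes of the androgen-making cells between the tubules, 5 rose and 0 fell (median 0.74). The rises came to 2 to 7 without single arrays, fewest without 8 h 2, and to 2 with equal medians. Under the run block there were 9 rises and 2 falls, the latter Hsd17b3, which makes testosterone (log2 -1.43 and adjusted p = 0.162 without the block, 0.021 with it), and Ephx1 (-0.41, 0.0855 and 0.0167). Scarb1, the receptor that takes up cholesterol from lipoproteins, had 223, 340 and 376 in the controls, 226 and 188 at 8 h and 795, 647 and 814 at 4 d (log2 1.78, adjusted p = 0.00246). Cyp11a1, which starts steroid synthesis, had 878, 893 and 1102 in the controls, 557 and 413 at 8 h and 1592, 978 and 1092 at 4 d (log2 1.29, adjusted p = 0.0102). Both 8 h values of Cyp11a1 lay below all controls without passing the test (log2 -0.97, adjusted p = 0.357), and at 4 d it did not differ from control past the threshold (log2 0.32, adjusted p = 0.384).

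Pdgfra, Cyb5a and Hsd11b1 were the other Leydig cell rises (log2 1.04, 0.90 and 0.86, the last named after its value was seen). Star, the carrier of cholesterol into mitochondria, had 0.74 without a call (adjusted p = 0.17), and Insl3, a Leydig cell hormone, 0.50 (adjusted p = 0.314), and both were called with the run as a block (0.0093 and 0.00549). Of 12 peritubular and smooth muscle markers Des and Myl9 rose (log2 1.07 and 0.69), while 7 had negative differences without a call, down to -0.86 for the smooth muscle actin Actg2. The median of this list was -0.03, and under the run block it gave 4 rises and 1 fall (Smtn). Of 9 endothelial markers none was called (smallest adjusted p 0.0625, Vwf), and 2 rose with the run as a block. Calls lost without an array included Cyp11a1, Pdgfra and Hsd11b1 without 8 h 2 and Cyb5a without 8 h 1. Des lost its call without control 1, 8 h 1, 8 h 2, 4 d 1, 4 d 2 or 4 d 3. That of Myl9 was lost without any 1 array except control 3.

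Markers of blood cells were mixed. Of 17 markers of macrophages and other leukocytes 4 rose and 1 fell (median 0.75). Lyz2, the lysozyme of macrophages and neutrophils, had 330.1, 346 and 415 in the controls, 271 and 433 at 8 h and 1086, 1269.8 and 1616 at 4 d (log2 1.88, SE 0.23, adjusted p = 0.00221). Cd53 and the Fc receptor chain Fcer1g rose (log2 1.35 and 1.28), beside Csf1r. Adgre1, the macrophage surface protein F4/80, fell from 324 and 338 to 192, 222 and 186 (log2 -0.69, adjusted p = 0.0283) and is named after its value was seen. Its call was lost without 8 h 1, 8 h 2, 4 d 1 or 4 d 3 and with equal medians. Cd68, another macrophage marker, had 0.98 without a call (adjusted p = 0.073), and Aif1 had -0.43 (0.104). Both were called under the run block (0.0436 and 0.0273). The summed signal of the 20 leukocyte markers on the array was 5632 and 6083 at 8 h and 6556, 6675 and 7337 at 4 d, which do not overlap, and its part in the rise of complement, class II and lysosomal genes was not tested. All 6 neutrophil markers (S100a8, S100a9, Camp, Np4, Csf3r and Cxcr2) were below 50 on all 8 arrays, with sums of 96.3 and 56.2 at 8 h and 64, 85.0 and 88.6 at 4 d. Calls lost without an array were Cd53 without 8 h 2 or 4 d 1 (adjusted p up to 0.122) and Fcer1g without 8 h 2 (adjusted p up to 0.0542).

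**Figure D4:**
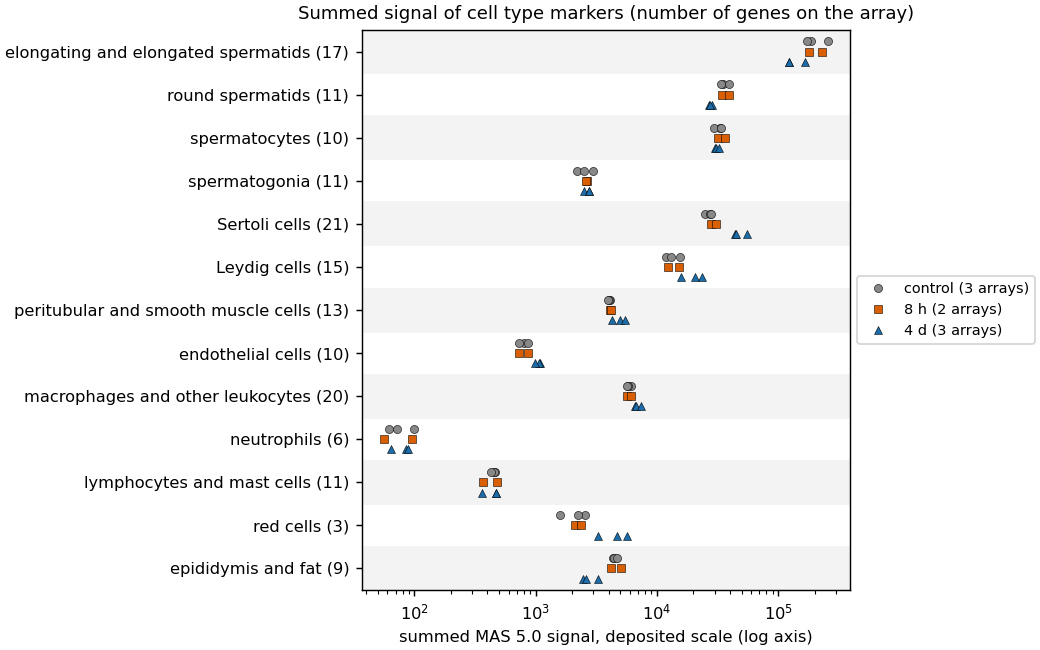
Summed deposited signal (log axis) of the markers of each cell type on each array, with the number of marker genes on the array in brackets, controls as grey circles, 8 h as orange squares and 4 d as blue triangles. The 4 d triangles lie below the 8 h squares for both spermatid lists and the epididymis and fat list. They lie above them for Sertoli, Leydig, peritubular, endothelial, leukocyte and red cell markers. The sums carry the weight of their brightest genes.

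Markers of the labelled tissue, testis, were present: none of the 17 markers of elongating and elongated spermatids, 21 of Sertoli cells and 15 of Leydig cells on the array was below 50 on all 8 arrays (0). The summed signal of the first list was 178333 and 232128 at 8 h and 122750, 121760 and 167895 at 4 d. Of 9 markers of the epididymis and fat, which adjoin the testis, Adam7, Cst11, Defb1, Adipoq and Lep were below 50 on all arrays. Cst8, a cystatin that the testis also makes, fell from 3830.2 and 4844 to 2126, 2233 and 2893 (log2 -0.84, adjusted p = 0.0172), and its call was lost without 8 h 2, 4 d 1 or 4 d 2 (adjusted p up to 0.164). Of the 11 markers of lymphocytes and mast cells 3 reached the signal minimum and none was called, the nearest being the mast cell protease Tpsb2 (log2 -0.99, adjusted p = 0.0771). The red cell gene Alas2, of haem synthesis, rose (log2 0.55, adjusted p = 0.0433), and the call was lost without any 1 of 7 arrays, all but control 3 (adjusted p up to 0.193). The globin Hbb had 1525 and 1767 at 8 h and 4781, 2457 and 3855 at 4 d (log2 1.11, adjusted p = 0.0595).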

How the data were processed

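Whole testis RNA was hybridised to Rat Genome 230 2.0 arrays, 1 array per sample. Per the labels, 0.1 g of frozen tissue was extracted, and 5 µg of RNA went into the biotin labelling. The deposited values are signal intensity per probe set computed by the authors in MAS 5.0, on a linear scale with a 2% trimmed mean of 250.1 on each array. GeneSpring 7.2 is named in the submitters' design text, and its role is not given in the sources used here. Detection calls were not used. Here log2(signal + 16) of the 18594 probe sets was modelled over all 8 arrays in limma (version 3.58.1, R version 4.3.3), using lmFit and eBayes with trend and without a block. Benjamini-Hochberg adjustment covered every probe set tested, with a threshold of 0.05. The number of arrays limits the precision.

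Of 31042 non-control probe sets, 20826 had 1 symbol, 436 several and 9780 none. Identifiers of 20758 matched the RefSeq table, with 0 symbols updated. A gene was read from its brightest probe set. The rule for named genes took the 10 largest rises and 10 largest falls among called genes. It added up to 4 called members of each list, or its member with the smallest p. Genes called against control at both times but not between them were included too. The rankings passed over probe sets without 1 symbol and provisional identifiers such as LOC or RGD. Of the 1231 called probe sets, 1063 had 1 symbol. List members outside that rule were named after their values were seen. The comparison, its members and the gene lists were chosen with earlier results of these data known. Same-numbered arrays of the control and 4 d groups shared a run, but 8 h 2 belonged to run 3. The pairing by run therefore comes from the hybridisation date in the settings files. Alternatives were other scalings, pseudocounts of 4 and 64, other signal minimums, only the 5 treated arrays, blocks, eBayes without a trend and leaving out each array, and, chosen after seeing the data, leaving out run 2 and comparing with control under the run block.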

Additional observations from a re-analysis of the deposited data

How the results depend on the processing

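Rises and falls between 8 h and 4 d numbered 728 and 503. Both counts stayed within 1.5 times of these with quantile normalization, pseudocounts of 4 and 64, no signal minimum, a stricter minimum and only the 5 treated arrays, and no sign of the 117 named genes turned under any setting run. With equal medians there were 290 rises and 252 falls, and without a trend in eBayes 331 falls. The replicate block by run gave 1736 and 1432, the block by the number in the titles 1534 and 1077, and runs 1 and 3 alone with the run as a block 1539 and 1350. Without run 2, an alternative chosen after seeing the data, they were 213 and 145. Leaving out 1 array at a time gave 177 to 905 rises and 92 to 638 falls, the fewest without 8 h 2, which left 1 array in that group. Where 1 array stood for 8 h, it was assumed to vary like the other groups. Of the 110 named genes called, 61 lost the call without 8 h 2, 49 without 8 h 1, 47 with equal medians and 0 under either block, and 36 kept it under all settings run, among them Wnt4, Testin, Timp1, Egr1, Il1a and Pim1. The cause of these changes was not tested, beyond the smaller number of arrays. Signals under 50 limit what can be said of dim genes such as Fos at 4 d or Wnt4 at 8 h.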

Other observations

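The named genes ranked 11 to 20 in each direction add further differences between the phases. These ranks were not asked for by the gene lists and were chosen after their values were seen. Ccl6, a chemokine, had 6.8 and 1.9 at 8 h and 211, 86.5 and 119 at 4 d (log2 2.86, limma adjusted p = 0.00388). Rgs4, which limits signalling of G proteins, had 50.3, 69.0 and 87.7 in the controls, 10.1 and 13.9 at 8 h and 156, 165 and 117 at 4 d, so that the 8 h arrays lay below every control and the 4 d arrays above (log2 2.53, SE 0.27, adjusted p = 0.00142). At 8 h Rgs4 differed from control by -1.58 (adjusted p = 0.131). Pdyn, the precursor of dynorphin peptides, went from 93.1 and 73.6 to 552, 555 and 529 (log2 2.50), and Pam, which amidates such peptides, from 207 and 240.3 to 1293, 1315 and 1345 (log2 2.48). Gpr176, an orphan receptor, rose from 21.1 and 6.5 to 234, 153 and 162, and its call was lost without 8 h 2. Ccl6, Rgs4 and Gpr176 were below 50 on both 8 h arrays and passed the signal minimum only through the 4 d arrays, where they are high.

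Among the falls of the same ranks, Lrp8, a receptor for apolipoprotein E and reelin, went from 478 and 405 to 123, 117 and 91.9 with controls at 435, 385 and 425 (log2 -1.86, adjusted p = 0.000687). Slc36a1, a lysosomal amino acid transporter, went from 98.2 and 54.5 to 10.6, 10 and 6.0 with controls at 60.1, 21.9 and 22.0 (log2 -1.86, adjusted p = 0.0273). It passed the signal minimum only through the 8 h arrays, its difference ranged from -2.61 to -0.93 over the settings run, and the call was lost without any 1 of the 5 treated arrays and without run 2. Ptpn7, a phosphatase known from blood cells, went from 230.1 and 199.7 to 59.8, 71.2 and 50.3 with controls at 104, 136 and 97.7 (log2 -1.60), so that both 8 h arrays lay above every control (log2 0.85, adjusted p = 0.469) and every 4 d array below. Bex4 went from 653 and 603 to 133, 163 and 172 (log2 -1.91), and Gpr37, an orphan receptor, from 308 and 246 to 86.7, 88.9 and 69.5 (log2 -1.58, call lost without 8 h 1). The controls of Bex4 read 533, 476 and 535 and those of Gpr37 236, 185 and 136.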
